A study of Mus musculus with 29 samples.

Results

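The machinery of DNA replication is described here by a list of 40 genes for origin licensing, the replisome and nucleotide supply. They were chosen by name, and all 40 were found by their Entrez identifiers among the 18834 genes counted. Their RNA was measured by sequencing in mouse MEPs, the megakaryocyte-erythrocyte progenitors from which platelets and red cells arise. There were 29 libraries, each from 230000 sorted cells, in 6 genotype groups. All groups carried a Cre transgene named for Scl, a gene of blood stem and progenitor cells. With JAK2V617F, the mutation that activates the JAK2 kinase in myeloproliferative neoplasms, there were 6 Ezh2 -/- libraries, 6 Ezh2 +/- libraries and 4 Ezh2 +/+ libraries. Without it there were 4 Ezh2 -/- libraries, 4 Ezh2 +/- libraries and 5 Ezh2 +/+ libraries, which served as controls. The labels spell the transgene SclCre in every library with V617F and ScleCre in every library without it. Both spellings were taken as 1 line, and a difference between lines could not be told apart from V617F. EZH2 is the methyltransferase of the Polycomb complex PRC2, which places a repressive mark on histone H3. The libraries with V617F were all from female mice except 1 Ezh2 +/+ library. Without V617F, 1 of 4 Ezh2 -/-, 2 of 4 Ezh2 +/- and 2 of 5 Ezh2 +/+ libraries were male. The sources used here do not give the ages, the sorting gates, whether Cre was induced or how the V617F allele was built. The labels call the libraries of a group replicates and say no more, so a p-value here reflects only how much these libraries vary.

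Replication starts at origins. The origin recognition complex (ORC) marks them, and CDC6 and CDT1 load the ring of MCM2 to MCM7 onto the DNA, which licenses the origin in G1. Cyclin E with its kinase helps start S phase, and CDC45 and the GINS proteins then join the ring to form the active helicase. Primase and polymerase alpha lay down primers, polymerases delta and epsilon extend them on the sliding clamp PCNA, which replication factor C (RFC) loads, and RPA coats the single strands. FEN1 and LIG1 join the Okazaki fragments, and ribonucleotide reductase and thymidylate synthase supply the deoxynucleotides. Many of these genes are classical E2F targets, switched on at the G1 to S transition, and erythroid progenitors divide fast, so the levels in a bulk sample follow the share of cells in cycle as well as the RNA per cell. Fewer cells of a type and less RNA per cell cannot be told apart in these data.

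Library totals lay between 31.6 and 59.4 M counts, with a median of 44.6 M, and the 40 genes held 0.831 to 1.066% of them. Ezh2 RNA followed the labels without overlap between genotypes: its highest mean in the Ezh2 -/- groups was 73.4 ± 5.89 CPM without V617F (SD, n = 4), against 303 ± 20 CPM in controls (n = 5). CPM is the count scaled to library size with TMM factors. The erythroid marker list was abundant in every group, at a summed 5840 to 11700 CPM. Markers of other cells were present and unequal between groups. The 18 megakaryocyte markers summed to 856 to 1320 CPM in V617F Ezh2 -/-, 220 to 1600 CPM in V617F Ezh2 +/-, 353 to 1550 CPM in V617F Ezh2 +/+, 130 to 189 CPM in Ezh2 -/-, 183 to 478 CPM in Ezh2 +/- and 168 to 553 CPM in controls. Gene counts do not show the V617F allele. Control replicate 5 and Ezh2 +/- replicates 2 and 5 stood apart from the other libraries without V617F by high stem and progenitor markers. Their mean log2 CPM was 4.08, 3.59 and 3.96, against 1.74 to 3.14 in the other libraries without V617F. Counts without these 3 libraries are given where they moved a result. With V617F this mean was 3.186 to 4.505 in Ezh2 -/-, 2.498 to 4.365 in Ezh2 +/- and 2.807 to 4.66 in Ezh2 +/+, where replicate 1 was highest. The run without the 3 libraries kept all V617F libraries.

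In control MEPs all 40 genes lay above the median tested gene. Per length, in RPKM (CPM per kilobase of the deposited gene length), the members had a median level of 67.1 RPKM, against 8.65 RPKM over all genes tested. The clamp gene Pcna was highest at 308.8 ± 19.01 RPKM (SD, n = 5 here and in the next sentences), followed by the helicase gene Mcm6 at 299 ± 11.6 RPKM. These 2 levels differed by less than their SD. The 6 genes of the MCM ring spanned 134.9 to 299 RPKM and had the highest median of any role, 186 RPKM. Rrm1, the large subunit of ribonucleotide reductase, stood at 193 ± 17.2 RPKM, and the small subunit Rrm2 at 126 ± 14.6 RPKM. The ORC genes were lower and uneven, with Orc6 at 65.1 RPKM, Orc2 at 58.0 RPKM, Orc5 at 53.5 RPKM, Orc1 at 22.2 RPKM, Orc3 at 20.03 RPKM and Orc4 at 12.9 RPKM. Of the cyclins E, Ccne1 had 66.8 ± 8.09 RPKM and Ccne2 16.9 ± 1.25 RPKM. The lowest member was Gins3, a GINS subunit, at 8.95 ± 0.825 RPKM. Between neighbours in this order, 14 of 39 gaps were larger than the SD, so only the coarse order is resolved.

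Loss of Ezh2 without V617F went with higher RNA of part of the replication genes. Relative to controls, 14 of 40 members rose in Ezh2 -/- MEPs, or 35% against 11.5% of all 13928 genes tested, 1 fell (2.5% against 12.2%) and 25 did not pass the test. In either direction these are 15 members, beside 23.7% of all genes. Genes passed at an adjusted p under 0.05 in the quasi-likelihood test of edgeR, adjusted over all genes by the Benjamini-Hochberg method. The median log2 fold change of the members was 0.17, against -0.01 over all genes, and 36 of 40 were positive. In 15 members every Ezh2 -/- library lay above every control library, as it did for 11.5% of all genes. The genes that rose were Pcna and 2 of the RFC genes (Rfc3, Rfc4), Rpa1 and Rpa2, Fen1, Rrm2 and Tyms, both cyclins E, Gins1, Gins3, Mcm3 and Mcm5. None of the 6 ORC genes, 2 loaders and 4 polymerase and primase genes passed, with log2 fold changes of -0.06 to 0.14 in ORC, 0.09 and 0.10 in the loaders and -0.12 to 0.13 in the polymerases and primase.

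Pcna, the sliding clamp, had 479, 454, 558 and 498 CPM in Ezh2 -/- MEPs, against 358, 392, 414, 409 and 371.5 CPM in controls. The groups did not overlap, and the log2 fold change was 0.35 ± 0.07 (SE), with an adjusted p of 0.000914 by edgeR. Rrm2, which limits deoxynucleotide synthesis in S phase, measured 384, 359, 436 and 372 CPM in Ezh2 -/-, against 261, 311, 266.5, 302 and 233 CPM in controls. Its change of 0.52 ± 0.14 was the largest of the members in this comparison, again with no overlap (adjusted p = 0.008). Tyms, thymidylate synthase, had 131.5, 125, 143 and 126 CPM in Ezh2 -/-, against 97.9, 111, 102, 121 and 98.2 CPM in controls. All 4 knockout libraries were higher, by 0.30 ± 0.08 on the log2 scale (adjusted p = 0.00835). Ccne2, the second cyclin E, had 68.9, 62.7, 77.1 and 77.0 CPM in Ezh2 -/- MEPs, and 49.96, 55.5, 60.7, 53.7 and 52.5 CPM in controls. The 2 ranges came close without meeting, and the fold change was 0.39 ± 0.10 (adjusted p = 0.00769). Its relative Ccne1 rose by 0.49 ± 0.18 with an adjusted p of 0.048, just inside the threshold, and missed it without the filter on low counts, without the sex term and with female libraries alone.

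Gins3 had 26.4, 25.8, 26.8 and 25.6 CPM in Ezh2 -/- MEPs, against 20.8, 22.3, 21.9, 24.2 and 18.8 CPM in controls. This low but tight gene did not overlap (0.28 ± 0.07, adjusted p = 0.00642). Rfc3, a subunit of the clamp loader, had 67.2, 65.4, 71.2 and 64.8 CPM in Ezh2 -/-, against 53.6, 64.5, 55.0, 55.4 and 52.9 CPM in controls. Control replicate 2 stood away from the other controls and almost reached the knockouts, and the fold change was 0.26 ± 0.07 (adjusted p = 0.0119). Mcm3, a subunit of the helicase ring, had 620.1, 612, 656 and 620.2 CPM in Ezh2 -/- MEPs and 552, 587, 528, 556.5 and 489 CPM in controls. It rose by 0.22 ± 0.07 without overlap (adjusted p = 0.0147), whereas Mcm6 of the same ring had a log2 fold change of 0.03 ± 0.05 (adjusted p = 0.642). Rpa2, of the single-strand binding protein, had 168, 167, 183 and 165 CPM in Ezh2 -/-, against 143, 159.8, 142, 153 and 131 CPM in controls. Its fold change was 0.24 ± 0.07 (adjusted p = 0.0215), and the adjusted p was 0.0521 without Ezh2 -/- replicate 3 and 0.0515 without control replicate 1.

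One member went the other way. Rfc2, another RFC subunit, had 149, 144, 157 and 145 CPM in Ezh2 -/-, against 155, 162, 167, 162 and 175 CPM in controls. The ranges overlapped, and the fall of 0.15 ± 0.05 (log2 fold change -0.15, adjusted p = 0.0305) missed the threshold with the compared groups alone, without the low-count filter or without the sex term. Of the other RFC genes, Rfc1 had a log2 fold change of 0.05 ± 0.05 and Rfc5 of 0.17 ± 0.08, neither of which passed.

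The other gene lists of the cell cycle are given as counts. Of 43 further replication genes 7 rose and 0 fell, with Asf1b, a histone chaperone, at 0.30 ± 0.08, Ccna2, the S phase cyclin A, at 0.47 ± 0.13, Chtf8, of an alternative clamp loader, at 0.17 ± 0.05, and Slbp, the histone mRNA binding protein, at 0.30 ± 0.09. Of 28 nucleotide supply genes 8 rose, among them Shmt1, Umps and Dck, and 1 fell, Samhd1, which degrades deoxynucleotides (log2 fold change -0.16 ± 0.06, adjusted p = 0.048). Of 26 mitosis genes 11 rose and 0 fell, with Aurka at 0.49 ± 0.13 and Top2a at 0.29 ± 0.07. Of 16 genes of the E2F and RB families 3 rose, namely E2f7 (0.95 ± 0.14, adjusted p = 1.03e-05) and E2f8, both repressors of E2F targets, and E2f2, an activator (0.37 ± 0.13). In the list of replication stress and repair genes 2 of 24 rose and 1 fell.

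Markers of other cells moved in the same comparison, mostly downwards. Of 17 tested megakaryocyte markers 5 fell (median log2 fold change -1.05), as did 5 of 11 stem and progenitor markers (1 rose), 6 of 12 T and NK cell markers, 4 of 12 macrophage and dendritic cell markers and 2 of 7 mast cell and basophil markers. Of 19 erythroid markers 1 rose and 2 fell, and 0 of 13 granulocyte and 0 of 8 B cell markers passed. The summed megakaryocyte level was 130 to 189 CPM in Ezh2 -/- and 168 to 553 CPM in controls, the T and NK cell level was 60.9 to 112 CPM in Ezh2 -/- and 62.6 to 214 CPM in controls, and no megakaryocyte marker was at 0 in a whole group. The macrophage and dendritic cell sums did not overlap, at 78.1 to 117 CPM in Ezh2 -/- and 172 to 525 CPM in controls. Whether these cells had a part in the higher replication RNA was not tested. The count of 15 members passing fell to 7 without the 3 libraries that stood apart, to 8 without Ezh2 -/- replicate 1, to 7 without Ezh2 -/- replicate 3, to 8 without control replicate 1 and to 8 without control replicate 5. With female libraries alone (3 against 3) it was 2, Pcna and Rfc3, while 7 genes (Pcna, Rrm2, Tyms, Ccne2, Gins3, Rfc3 and Mcm3) passed whichever single library was left out.

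With V617F the same knockout comparison ran the other way over the members as a set, and the genes that passed were mostly others. Lists cut at a threshold do not show that different genes responded. Of the 15 members that passed without V617F, 13 also passed in the interaction given below. Only 3 members passed in both comparisons, Ccne1, Rfc3 and Rpa2, higher in Ezh2 -/- without V617F and lower with it. Relative to V617F Ezh2 +/+, 12 of 40 members fell in V617F Ezh2 -/- MEPs (30% against 13.6% of all genes), 0 rose (0% against 13%) and 28 did not pass. The median log2 fold change was -0.13, against 0.00 over all genes (-0.00343 before rounding), and 38 of 40 were negative. Of the 6 ORC genes 4 fell, and they include the 3 members of lowest p. The remaining 8 were Rfc3 and Rfc5 of the clamp loader, Rpa2, Prim1 (the catalytic primase subunit), Pole (the catalytic subunit of polymerase epsilon), Gins2, Rrm1 and Ccne1. None of the 6 MCM ring genes passed (log2 fold changes -0.19 to -0.06), nor did Cdc6 and Cdt1 or Fen1 and Lig1.

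Orc5 had 79.5 (lowest), 86.6 (median) and 102 CPM (highest) in 6 V617F Ezh2 -/- libraries, against 100.5, 128, 129 and 128 CPM in V617F Ezh2 +/+. Only Ezh2 +/+ replicate 1 reached the knockout range, and the log2 fold change was -0.45 ± 0.11 (adjusted p = 0.00432 by edgeR). Orc2 had a lowest of 158.5, a median of 182 and a highest of 215 CPM in V617F Ezh2 -/-, against 213, 257, 277.5 and 280.2 CPM in V617F Ezh2 +/+. The same replicate overlapped, and the fold change was -0.45 ± 0.12 (adjusted p = 0.00966). Orc1, an ATPase subunit whose gene is itself an E2F target, ran from 39.97 over 49.95 (median) to 55.1 CPM in V617F Ezh2 -/-, against 54.6, 69.2, 78.2 and 71.4 CPM in V617F Ezh2 +/+. It fell by 0.44 ± 0.12 (log2 fold change -0.44, adjusted p = 0.00968), with overlap once more in replicate 1 alone. Orc6 passed as well (-0.24 ± 0.09, adjusted p = 0.0468), while Orc3 and Orc4 had -0.13 ± 0.07 and -0.16 ± 0.08 and did not.

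Rfc5 ranged from 104 over a median of 115 to 120.0 CPM in V617F Ezh2 -/-, against 122, 134, 139 and 149 CPM in V617F Ezh2 +/+. Its groups did not overlap (-0.25 ± 0.08, adjusted p = 0.0228). Prim1 ranged from 106.5 over 113 to 115 CPM in V617F Ezh2 -/-, against 119.6, 129, 122 and 125 CPM in V617F Ezh2 +/+. This was the smallest change that passed, -0.15 ± 0.05 (adjusted p = 0.0305), without overlap. Such separation was seen in 3 members (Rfc3 was the third), as in 8.11% of all genes. Rpa2 ranged from 114 over 134 to 140.3 CPM in V617F Ezh2 -/-, against 138, 159, 162 and 154 CPM in V617F Ezh2 +/+, and its fold change was -0.21 ± 0.07 (adjusted p = 0.0302). Pole ranged from 162 over 183 to 197 CPM in V617F Ezh2 -/-, against 186, 225, 259 and 215 CPM in V617F Ezh2 +/+ (-0.25 ± 0.09, adjusted p = 0.0346). Gins2 ranged from 34.8 over 38.8 to 41.9 CPM in V617F Ezh2 -/-, against 41.5, 45.3, 46.0 and 48.8 CPM in V617F Ezh2 +/+ (-0.24 ± 0.08, adjusted p = 0.0346). In each of these last 3 genes the lowest Ezh2 +/+ library lay inside the knockout range.

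Of the 43 further replication genes 13 fell, led by Rnaseh2a (-0.27 ± 0.05), which removes ribonucleotides from DNA, the fork protection gene Timeless, Pole3 and the nuclease gene Dna2, and 2 rose, Chtf8 (0.16 ± 0.05) and Mcm9 (0.19 ± 0.07). Of 28 nucleotide supply genes 9 fell, among them Nme1, Mthfd1, Ppat and Dtymk, and Shmt1 rose by 0.54 ± 0.09 (adjusted p = 7.3e-05), as it had without V617F. None of the 26 mitosis genes passed (median -0.06). In the E2F and RB list E2f7 (0.69 ± 0.14), E2f8 (0.28 ± 0.07) and E2f5 rose, and Tfdp1, the dimer partner of the E2F proteins, fell by 0.20 ± 0.07 (log2 fold change -0.20). In the replication stress list 5 of 24 fell, among them Atr (-0.18 ± 0.06) and Rad17 (-0.33 ± 0.08), and 0 rose. Of 19 erythroid markers 1 rose and 2 fell, the carbonic anhydrase genes Car1 (-0.74 ± 0.16) and Car2 (-0.51 ± 0.14). The erythroid sums did not overlap, at 5840 to 7540 CPM in V617F Ezh2 -/- and 7710 to 10100 CPM in V617F Ezh2 +/+. Of 8 B cell markers 6 rose, at a summed 7.03 to 44.5 CPM in V617F Ezh2 -/-, against 3.35 to 9.82 CPM in V617F Ezh2 +/+. Of 12 T and NK cell markers 2 rose and 1 fell, with sums of 57.6 to 96.2 CPM in V617F Ezh2 -/- and 32.8 to 59.0 CPM in V617F Ezh2 +/+. The megakaryocyte, granulocyte, macrophage and dendritic cell, mast cell and basophil, and stem and progenitor lists gave 0 of 17, 0 of 13, 0 of 12, 0 of 7 and 0 of 11. The part of any of these cells in the result was not tested.

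The count of 12 depended on single libraries and on which groups shared the fit. It was 3 without V617F Ezh2 -/- replicate 2 and 4 without either replicate 3 or replicate 4 of that group, 4 without V617F Ezh2 +/+ replicate 2 or 3, 3 without V617F Ezh2 +/+ replicate 4, 17 without its replicate 1, and 5 with the compared groups alone. Orc1, Orc2 and Orc5 passed whichever library was left out, and with female libraries alone (6 against 3) Orc2 and Orc5 passed, Orc1 having an adjusted p of 0.0534.

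Whether the knockout effect differed with and without V617F was tested as an interaction, which does not ask whether the signs are opposite. The interaction is the log2 fold change of Ezh2 -/- against Ezh2 +/+ with V617F minus that without V617F. It was below 0 in 38 of 40 members with a median of -0.35, against 0.03 over all genes. It passed as negative in 21 members (52.5% against 10.6% of all genes) and as positive in 0 (0% against 8.47%). All 3 RPA genes, all 3 deoxynucleotide supply genes and both cyclins E passed, with 4 of 6 clamp and RFC genes, 3 of 6 ORC, 3 of 6 MCM, 2 of 6 activation and 1 of 2 Okazaki genes. None of the 2 loaders and 4 polymerase and primase genes did (Pold1 0.02 ± 0.08, Pole -0.13 ± 0.12).

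The lowest p belonged to Rfc3, with an interaction of -0.46 ± 0.10 (adjusted p = 0.0126 by edgeR). Its 2 knockout effects were -0.20 ± 0.07 with V617F and 0.26 ± 0.07 without, and both passed on their own. Rpa2 had an interaction of -0.45 ± 0.10 (adjusted p = 0.0126), from -0.21 with V617F and 0.24 without. Pcna had -0.44 ± 0.10 (adjusted p = 0.0126), from -0.09 ± 0.07 with V617F, which did not pass, and 0.35 without. Its knockout libraries ranged from 381 over 419 to 464 CPM with V617F and overlapped the 411, 460.5, 441 and 472 CPM of V617F Ezh2 +/+.

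Ccne1 had the largest interaction, -0.95 ± 0.25 (adjusted p = 0.0195). It ranged from 90.6 over 115.5 to 143 CPM in V617F Ezh2 -/-, against 124, 167, 190.1 and 174 CPM in V617F Ezh2 +/+. Without V617F it had 183, 157, 206 and 171 CPM in Ezh2 -/-, against 131, 150.4, 127, 137.5 and 107 CPM in controls, so every knockout library was above every control. Rrm1 had an interaction of -0.50 ± 0.13 (adjusted p = 0.0201). It ranged from 619 over 719.7 to 787.5 CPM in V617F Ezh2 -/-, against 764, 896, 902 and 847 CPM in V617F Ezh2 +/+, with overlap. Without V617F it had 907, 877, 956 and 911 CPM in Ezh2 -/-, all above the 743, 820.0, 774, 852 and 675.5 CPM of controls. Gins2 had -0.44 ± 0.12 (adjusted p = 0.0201), and its 46.6, 45.7, 55.1 and 46.1 CPM in Ezh2 -/- lay above the 39.6, 43.2, 40.3, 45.3 and 41.1 CPM of controls.

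The interaction count was 3 without Ezh2 -/- replicate 3, 4 without control replicate 1, 11 without control replicate 5, 11 without V617F Ezh2 +/+ replicate 3, 12 without V617F Ezh2 +/+ replicate 4 and 13 without the 3 libraries that stood apart. With female libraries alone 1 member passed (Rfc3), and Pcna, Rpa2 and Rfc3 passed whichever single library was left out. The further replication genes gave 14 lower and 1 higher of 43, nucleotide supply 14 lower of 28, mitosis 6 lower of 26 and the E2F and RB list 2 lower of 16, Tfdp1 and E2f4. Markers of other cells also had interactions that passed, higher in 3 of 17 megakaryocyte (median 1.39), 4 of 12 T and NK cell (median 1.41), 4 of 12 macrophage and dendritic cell (median 0.94), 1 of 8 B cell, 1 of 7 mast cell and basophil and 2 of 11 stem and progenitor markers (1 lower). Of 19 erythroid markers 2 were lower, Car1 and Car2, and of 13 granulocyte markers 0 passed. Their part was not tested.

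The same libraries give the effect of V617F within each Ezh2 genotype, so these comparisons share groups with the ones above. On the Ezh2 -/- background V617F went with lower RNA over most of the machinery. Relative to Ezh2 -/- without V617F, 29 of 40 members fell (72.5% against 22.5% of all genes), 0 rose (0% against 19.1%) and 11 did not pass. The median log2 fold change was -0.28, against -0.03 over all genes. In 25 members every V617F library lay below every library without it, as in 18.8% of all genes. All of the loaders, Okazaki and deoxynucleotide supply genes fell, as did 5 of 6 MCM ring genes (all but Mcm6), 5 of 6 helicase activation genes (all but Gins3), 3 of 4 polymerase and primase genes (all but Pola1), 3 of 6 ORC and 3 of 6 clamp genes, 2 of 3 RPA genes and Ccne1.

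Rfc3 ranged from 46.2 over 52.8 to 55.9 CPM in V617F Ezh2 -/-, against 67.2, 65.4, 71.2 and 64.8 CPM in Ezh2 -/-. All 6 V617F libraries lay below all 4 libraries without it, with a log2 fold change of -0.37 ± 0.07 (adjusted p = 0.000662 by edgeR). Rpa2 ranged from 114 over 134 to 140.3 CPM in V617F Ezh2 -/-, against 168, 167, 183 and 165 CPM in Ezh2 -/-. It fell by 0.37 ± 0.07 (log2 fold change -0.37, adjusted p = 0.000716) without overlap. Pold1, the catalytic subunit of polymerase delta, ranged from 198 over 208 to 223 CPM in V617F Ezh2 -/-, against 263, 267, 256 and 266 CPM in Ezh2 -/-. Both groups were tight and apart (-0.29 ± 0.06, adjusted p = 0.000833). Mcm5 ranged from 502 over 571 to 606 CPM in V617F Ezh2 -/-, against 738.5, 698, 789 and 718 CPM in Ezh2 -/-. The fold change of this MCM ring gene was -0.37 ± 0.08 (adjusted p = 0.0014).

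Lig1, the ligase that seals Okazaki fragments, ranged from 263 over 297.5 to 322 CPM in V617F Ezh2 -/-, against 371, 402, 365 and 347 CPM in Ezh2 -/-. It did not overlap (-0.32 ± 0.07, adjusted p = 0.00203). Mcm7 ranged from 468 over 549 to 597 CPM in V617F Ezh2 -/-, against 686, 688, 730.4 and 675 CPM in Ezh2 -/- (-0.34 ± 0.08, adjusted p = 0.00259). Rpa1, the large RPA subunit, ranged from 259 over 294 to 316 CPM in V617F Ezh2 -/-, against 358, 353, 382 and 352 CPM in Ezh2 -/- (-0.30 ± 0.07, adjusted p = 0.00316). Tyms ranged from 94.0 over 107 to 116 CPM in V617F Ezh2 -/-, against 131.5, 125, 143 and 126 CPM in Ezh2 -/- (-0.32 ± 0.08, adjusted p = 0.00367). None of these 4 genes overlapped between the groups. Among the others the largest changes were those of Ccne1, -0.60 ± 0.17, and Cdt1, -0.45 ± 0.11, while Rfc2, Orc4 and Orc3 had -0.02 ± 0.05, 0.04 ± 0.08 and -0.05 ± 0.07.

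The 3 members of lowest p in this comparison, which calls the most genes, show what lies in front of these genes. The 150 bases before the annotated start are given 5′ to 3′ on the gene's strand, from RefSeq (GRCm38.p6), whereas the counts came from reads aligned to mm9, so the positions hold for GRCm38.p6 alone. Capitals mark matches to an E2F 8-mer (TTTCCCGC, TTTGGCGC, TTTCGCGC or TTTGCCGC, either strand) or to CCAAT (either strand, so also ATTGG). The stretches lie at chr5:151651209-151651358 (minus strand) for Rfc3, chr4:132768210-132768359 (plus strand) for Rpa2 and chr7:44548816-44548965 (minus strand) for Pold1.
Rfc3: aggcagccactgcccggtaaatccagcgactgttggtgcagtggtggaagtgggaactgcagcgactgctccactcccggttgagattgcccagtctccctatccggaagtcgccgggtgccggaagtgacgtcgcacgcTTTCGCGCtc
Rpa2: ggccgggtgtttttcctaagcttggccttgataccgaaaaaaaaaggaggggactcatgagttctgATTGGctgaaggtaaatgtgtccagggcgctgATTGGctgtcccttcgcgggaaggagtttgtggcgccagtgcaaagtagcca
Pold1: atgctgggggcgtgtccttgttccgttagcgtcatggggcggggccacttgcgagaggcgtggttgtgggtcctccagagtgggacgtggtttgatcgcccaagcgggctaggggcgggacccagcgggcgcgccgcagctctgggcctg
The Rfc3 stretch ends in an E2F match next to the start, the Rpa2 stretch holds a pair of CCAAT matches and no E2F 8-mer, and the Pold1 stretch holds neither. Pold1 has an E2F 8-mer past the start, outside the stretch shown, and counts below as a member with a match.

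The table holds windows of 250 bases before to 50 after the start for 33 of the 40 members. Of these, 13 held at least 1 E2F 8-mer (39.4%), against 515 of 10952 tested genes with a window (4.7%) and 2.6% of all genes in the table. CCAAT was found in 22 of 33 members (66.7%), against 42.9% of tested genes. In 9 members an E2F match lay wholly before the start, and the 8 other than Rfc3 are shown with 11 bases on each side, the match in capitals (overlapping matches run together).
Mcm6, upstream match, chr1:128359797-128359826 (minus): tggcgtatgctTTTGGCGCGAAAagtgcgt
Mcm6, match nearer the start, chr1:128359734-128359763 (minus): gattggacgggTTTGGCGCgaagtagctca
Orc3, chr4:34614965-34614994 (minus): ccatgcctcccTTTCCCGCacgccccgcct
Orc1, chr4:108579416-108579445 (plus): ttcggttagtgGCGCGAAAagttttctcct
Mcm7, chr5:138172030-138172059 (minus): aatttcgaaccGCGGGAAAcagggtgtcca
Mcm5, chr8:75109345-75109374 (plus): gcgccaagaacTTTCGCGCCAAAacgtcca
Gins3, chr8:95633507-95633536 (plus): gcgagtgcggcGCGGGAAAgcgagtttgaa
Cdc6, chr11:98908002-98908031 (plus): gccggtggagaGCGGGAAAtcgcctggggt
Pola1, chrX:93632275-93632304 (minus): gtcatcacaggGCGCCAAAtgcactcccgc
Members with and without a match were both among those that moved. With V617F on the Ezh2 -/- background 9 of 13 members with an E2F match fell and 15 of 20 without one, and the interaction passed in 3 of 13 with a match and 14 of 20 without. Mcm6 carries 3 matches and passed in none of the comparisons above. A match is a string of letters and not a measured binding site, and the absence of these letters from the window says nothing of the factor.

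The further replication genes moved with the members, with 28 of 43 lower in V617F Ezh2 -/- than in Ezh2 -/-. The helicase gene Recql4 (-0.62 ± 0.14), Chtf18 (-0.49 ± 0.11), Uhrf1, which maintains DNA methylation at the fork (-0.36 ± 0.07), and Pola2, of polymerase alpha (-0.34 ± 0.08), had the lowest p, and Pold4, the small polymerase delta subunit, alone rose (0.68 ± 0.20). Of 28 nucleotide supply genes 15 fell, among them Umps, Nme1 and Atic, and 2 rose, Rrm2b, the p53-responsive small subunit of ribonucleotide reductase (0.33 ± 0.09), and Ctps2. Of 24 replication stress genes 11 fell, including Brca2, and of 26 mitosis genes 9 fell, including Cenpa (-0.57 ± 0.12) and Birc5. In the E2F and RB list 6 of 16 fell, including E2f2 (-0.58 ± 0.13) and Mybl2 (-0.38 ± 0.12), and E2f5 rose.

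Markers of other cells moved widely in this comparison. All 17 megakaryocyte markers rose (median log2 fold change 2.69), with sums of 856 to 1320 CPM in V617F Ezh2 -/- and 130 to 189 CPM in Ezh2 -/-, and Pf4 alone rose by 4.04 ± 0.57. All 13 granulocyte markers rose, and their sums were 132 to 1350 CPM in V617F Ezh2 -/- and 21.7 to 88.3 CPM in Ezh2 -/-. All 7 mast cell and basophil markers and 7 of 11 stem and progenitor markers rose (1 fell), and 9 of 19 erythroid markers fell, with sums of 5840 to 7540 CPM in V617F Ezh2 -/- and 8950 to 10500 CPM in Ezh2 -/-. Of 12 macrophage and dendritic cell markers 5 fell (median -1.01), of 12 T and NK cell markers 5 fell and 1 rose (median -0.70), and of 8 B cell markers 1 rose and 1 fell. The part of these cells in the lower replication RNA was not tested. The count of 29 was 17 without Ezh2 -/- replicate 3, 22 to 32 without any other single library and 25 with female libraries alone (6 against 3), and 16 members passed whichever library was left out.

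On the Ezh2 +/+ background few members passed. Relative to controls 1 of 40 rose (2.5% against 9.73% of all genes), 1 fell (2.5% against 13.9%) and 38 did not pass, with a median log2 fold change of 0.07. Pold1 had 201, 209, 247 and 223 CPM in V617F Ezh2 +/+, against 288, 297, 276, 273 and 247 CPM in controls. The highest V617F library lay a fraction of a CPM below control replicate 5, so the groups did not cross, as in 10.1% of all genes in this direction (-0.31 ± 0.06, adjusted p = 0.000727 by edgeR). Pold1 passed whichever library was left out, and its log2 fold change with V617F was -0.31 on the Ezh2 +/+ background and -0.29 on the Ezh2 -/- background. Rfc4 had 90.7, 113, 114 and 111 CPM in V617F Ezh2 +/+, against 77.8, 86.1, 95.8, 101 and 81.0 CPM in controls. V617F replicate 1 overlapped the controls, and the rise of 0.28 ± 0.10 (adjusted p = 0.04) did not pass with female libraries alone or with the compared groups alone. Pcna (0.19 ± 0.07, adjusted p = 0.0535), Orc2 (0.33 ± 0.13, adjusted p = 0.0594) and Ccne2 (0.26 ± 0.10, adjusted p = 0.0655) came next and did not pass.

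The count of 2 (background 23.6% in either direction) was 5 with DESeq2 size factors, 6 with DESeq2, 4 without the low-count filter, 5 with the compared groups alone and 5 without V617F Ezh2 +/+ replicate 1. It was 3 without control replicate 3, 4 without control replicate 4, 1 without any one of control replicates 1, 2 and 5 or V617F Ezh2 +/+ replicates 2 and 3, and 1 without the 3 libraries that stood apart. In this comparison 11 of 17 megakaryocyte and 11 of 13 granulocyte markers rose, with medians of 1.38 and 3.11 on the log2 scale, and 10 of 12 T and NK cell and 10 of 12 macrophage and dendritic cell markers fell. Of 11 stem and progenitor markers 2 rose and 1 fell, of 19 erythroid markers 1 rose and 2 fell, and 1 of 8 B cell markers fell. The part of these cells was not tested. Of the further replication genes 1 of 43 rose, Tipin (0.30 ± 0.09), and 1 fell, Ticrr (-0.39 ± 0.10). Nucleotide supply had 4 higher and 1 lower of 28, mitosis 2 higher of 26 (Aurka and Top2a), and E2f2 (-0.53 ± 0.13) and E2f8 (-0.26 ± 0.07) fell.

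No member passed in a comparison with Ezh2 +/- MEPs. V617F Ezh2 +/- against Ezh2 +/- gave 0 of 40 (0% against 3.35% higher and 6.51% lower over all genes), with 1 member at an unadjusted p under 0.05 by edgeR and 0 calls by DESeq2. That member was Pold1, which ranged from 194 over 238 to 247 CPM in V617F Ezh2 +/-, against 288, 257, 274 and 248 CPM in Ezh2 +/-. Its libraries did not overlap, as in 5.36% of all genes, and the log2 fold change of -0.15 ± 0.06 had an adjusted p of 0.13, passing only in the fit without a sex term. Gins2, second in p, ranged from 33.9 over 42.1 to 50.1 CPM in V617F Ezh2 +/-, against 44.5, 49.0, 49.8 and 45.6 CPM in Ezh2 +/- (-0.17 ± 0.09, adjusted p = 0.223). In the same comparison 7 of 17 megakaryocyte and 9 of 13 granulocyte markers rose, and 7 of 19 erythroid, 11 of 12 T and NK cell, 11 of 12 macrophage and dendritic cell and 1 of 8 B cell markers fell.

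Ezh2 +/- against Ezh2 +/+ without V617F also gave 0 (background 0.00718% in each direction), with 2 members at an unadjusted p under 0.05 and 0 by DESeq2. These were Gins2, with 44.5, 49.0, 49.8 and 45.6 CPM in Ezh2 +/- and 39.6, 43.2, 40.3, 45.3 and 41.1 CPM in controls (0.18 ± 0.08), and Pcna, with 404, 447, 456 and 416 CPM in Ezh2 +/- and 358, 392, 414, 409 and 371.5 CPM in controls (0.15 ± 0.07). Both overlapped and had an adjusted p of 1. The log2 fold change was positive in 35 of 40 members (median 0.06), and Pcna averaged 497 ± 44.5 CPM over the Ezh2 -/- libraries, 430.5 ± 24.8 CPM over the Ezh2 +/- libraries and 389 ± 23.9 CPM over the controls (SD). With V617F, Ezh2 +/- against Ezh2 +/+ gave 0 (background 0% higher and 0.00718% lower), 0 members at an unadjusted p under 0.05 and 0 by DESeq2. Pold1 ranged from 194 over 238 to 247 CPM in V617F Ezh2 +/-, against 201, 209, 247 and 223 CPM in V617F Ezh2 +/+ (0.10 ± 0.06), with overlap. Ccne2 ranged from 45.5 over 58.2 to 72.1 CPM in V617F Ezh2 +/-, against 57.2, 69.7, 62.6 and 72.3 CPM in V617F Ezh2 +/+ (-0.16 ± 0.10), also with overlap, and both genes had an adjusted p of 0.899. The interaction of V617F with Ezh2 +/- gave 0 of 40 (background 0%), with 3 members at an unadjusted p under 0.05 and 0 by DESeq2, led by Gins2 (-0.29 ± 0.12, adjusted p = 0.657) and Pcna (-0.23 ± 0.10, adjusted p = 0.696).

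Within a group the members also varied together from library to library. The mean log2 CPM over the 40 genes ran from 7.04 to 7.33 in V617F Ezh2 -/-, 7.08 to 7.56 in V617F Ezh2 +/-, 7.202 to 7.454 in V617F Ezh2 +/+, 7.41 to 7.56 in Ezh2 -/-, 7.29 to 7.46 in Ezh2 +/- and 7.18 to 7.40 in controls. The V617F Ezh2 +/- libraries spread most, and their Ccne1 measured 148 ± 46.9 CPM (SD, n = 6), against 149 ± 20.6 CPM in Ezh2 +/- (n = 4). In 6 of 6 groups the library with the lowest member mean also had the lowest nucleotide supply mean, and in 5 of 6 the lowest mitosis mean. In 5 of 6 it had the highest stem and progenitor marker mean and in 4 of 6 the highest mean of each of the megakaryocyte, T and NK cell, macrophage and dendritic cell, and mast cell and basophil lists. The granulocyte and B cell means were highest in that library in 2 of 6 groups each. The erythroid mean was highest there in 1 of 6 and lowest in 3 of 6. These are descriptions over few libraries that share depth and scaling, and the source of the joint variation was not tested.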

How the data were processed

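RNA-seq was measured in MEPs of 29 mouse libraries. The deposited values are raw read counts, 1 whole number per gene and library, with a gene length in bases beside them. Per the submitters' processing notes, the authors aligned reads with STAR to mm9. Per the labels' protocols, total RNA came from 230000 sorted cells per library and libraries followed standard Illumina protocols. The sources used here give no counting program, annotation, strand setting or read length, so reads of overlapping or antisense genes may not be told apart. Counts of none of the 40 members were identical to those of another gene, and no pair of replicates was a duplicate (lowest chi-square per degree of freedom 4.71). Symbols came from a RefSeq table of GRCm38.p6 matched on Entrez identifiers, which named 18772 genes.

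All 29 libraries entered 1 edgeR 4.0.16 quasi-likelihood fit (R 4.3.3; filterByExpr with minimum count 10 and minimum total 15, 13928 genes; TMM factors 0.95 to 1.09; robust dispersion; terms for genotype group and labelled sex; 22 residual degrees of freedom; biological coefficient of variation 18.1%). Tests were two-sided with Benjamini-Hochberg adjustment over all genes, and a gene passed at an adjusted p under 0.05. Standard errors are the absolute log2 fold change over the root of F. Alternatives were DESeq2 1.42.0, its size factors, no low-count filter, no sex term, female libraries alone, the compared groups alone, a replicate block, each library left out, and 3 libraries left out together. Samples of a group share replicate numbers with other groups, and the labels give the numbers no meaning. Deviations of same-numbered libraries had correlations from -0.441 to 0.795, with no comparison having every pair over 0.1. For Ezh2 +/- against Ezh2 +/+ they were 0.426, -0.441, 0.37 and 0.795 without V617F and 0.686, -0.0629, 0.369 and 0.418 with it. Whether the numbers pair the libraries was not settled, so the replicate block is an alternative only.

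In each comparison with calls, the 8 members of lowest adjusted p, and those called against the prevailing direction, are given by library, or by the lowest, median and highest library in groups of 6. In interactions these are the 6 of lowest adjusted p, where no member passed the 2 of lowest p, and in the other lists up to 4 per direction. Some genes of these other lists are not reported here by name. The values of further members were given after they were seen. The members and lists were chosen with earlier results of these data known, so they lend no independent support.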

Additional observations from a re-analysis of the deposited data

Results flagged for a closer look

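Among 240 sets of a member and a group, 15 held a library far from the others of its group, where chance gives about 1 in 20. In V617F Ezh2 -/-, replicate 1 was highest in Rfc2 (159 CPM) and replicate 6 in Rpa3 (51.3 CPM). In V617F Ezh2 +/-, replicate 5 was highest in Rfc2 (190 CPM). In V617F Ezh2 +/+, replicate 1 was lowest in Orc5 (100.5 CPM), Mcm7 (522 CPM), Rfc4 (90.7 CPM) and Fen1 (177 CPM). In Ezh2 -/- without V617F, replicate 3 was highest in Gins2 (55.1 CPM). In Ezh2 +/- without V617F, replicate 4 was highest in Prim1 (131 CPM) and Rpa3 (56.5 CPM), and replicate 5 was lowest in Mcm7 (607 CPM), Rrm1 (750.3 CPM) and Rrm2 (259 CPM). In controls, replicate 5 was lowest in Cdc6 (117 CPM) and replicate 2 highest in Rfc3 (64.5 CPM).

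The effect of Ezh2 -/- against Ezh2 +/+ differed with and without V617F, by edgeR's test of the interaction, in 21 members, each with a lower log2 fold change with V617F. By role the interactions were -0.57 in Orc2, -0.46 in Orc5 and -0.37 in Orc6 of ORC, and -0.28 in Mcm3, -0.34 in Mcm4 and -0.41 in Mcm5 of the MCM ring. They were -0.42 in Gins1 and -0.44 in Gins2, and -0.44 in Pcna, -0.46 in Rfc3, -0.50 in Rfc4 and -0.42 in Rfc5. RPA had -0.35 in Rpa1, -0.45 in Rpa2 and -0.47 in Rpa3, and Fen1 had -0.42. Among the deoxynucleotide genes Rrm1 had -0.50, Rrm2 -0.65 and Tyms -0.41, and the cyclins E had -0.95 in Ccne1 and -0.51 in Ccne2.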

How the results depend on the processing

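No value that passed changed sign under any alternative run. The number of members that passed is given first for Ezh2 -/- against Ezh2 +/+ without V617F (15), then the same with V617F (12), V617F in Ezh2 +/+ (2) and the interaction with Ezh2 -/- (21). Female libraries alone gave 2, 2, 1 and 1, and leaving out 3 libraries together gave 7, 9, 1 and 13. The replicate block gave 12, 5, 2 and 12, and the compared groups alone 16, 5, 5 and 29. For V617F in Ezh2 +/+ the count was 5 with DESeq2 size factors, 6 with DESeq2 and 4 without the low-count filter. V617F in Ezh2 +/- gave 1 without the sex term and 0 otherwise. Leaving out 1 library at a time gave 7 to 17, 3 to 17, 1 to 5 and 3 to 27 in the same order, 17 to 32 for V617F in Ezh2 -/- (29), and 0 in every Ezh2 +/- comparison. V617F in Ezh2 -/- gave 25 to 31 under every other alternative. The cause of these moves was not tested, and several of these fits also held fewer libraries. For single members, 1416 log2 fold changes kept direction and side of the threshold, 337 lost the call and 1 gained it. Another scaling (DESeq2 size factors against TMM) moved the median of all genes by less than 0.1 in each comparison. The least abundant member, Gins3, had 18.8 CPM or more in each library, and groups of 4 to 6 libraries limit the precision.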
